A study of Saccharomyces cerevisiae with 2 samples.

Results

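Transcripts that hold the whole coding span of 2 or more open reading frames (ORFs) on the same strand were picked out of a transcript map of budding yeast, Saccharomyces cerevisiae, that lacks SET2. The members are 639 isoforms with 2551 molecules, of 510263 isoforms and 6074514 molecules in all, and they lay over 112 pairs of ORFs. Each isoform is a unique combination of strand, start and end, and its count is called molecules. Membership was decided by position alone, against 6002 nuclear protein-coding ORFs of the R64 genome each measured over its whole coding span, introns and stop codon included. Isoforms that held only ORFs whose coding spans overlap each other were left out.

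The series has 1 group, a delta set2::kanMX4 strain in the BY4741 background, with 2 biological replicate cultures grown in YPAD (rich, glucose-based) and harvested in mid-log phase at OD 1. SET2 encodes the histone methyltransferase that travels with elongating RNA polymerase II. TIF-Seq (transcript isoform sequencing) reads where each full-length cDNA begins at the cap and where it ends at the poly(A) tail, and the RNA between was not read. The authors' table gives 1 pooled count for both cultures, so no value below has a replicate error, no comparison with a wild type was possible, and no test between samples was made. Intervals are 95% Wilson intervals on molecules and cover counting error only, since no molecular identifier is described and copies made by PCR count as molecules. SET2 itself had 0 overlapping molecules on both strands together (at most 4.94e-05% of the total).

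A yeast messenger RNA normally carries 1 main ORF, and a ribosome that scans from the cap starts at the first suitable AUG codon. A short ORF placed ahead of the main one, called an upstream ORF, can therefore reduce how many ribosomes reach the next. Between neighbours on the same strand, cleavage and polyadenylation after the first gene normally releases its RNA before the second gene is reached. Molecules that run through both ORFs are called bicistronic or read-through transcripts. Below, the ORF nearer the cap is the upstream ORF, the other is the downstream ORF, and the bases between the upstream stop codon and the downstream start codon are the spacing.

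The closest pairs among those with at least 10 molecules are shown by their junctions, because their ORFs were only 5 to 27 nt apart. Capitals mark the upstream stop codon and the downstream start codon, all sequences are from R64 and run 5′ to 3′ on the transcribed strand, and the spacer of RCR2 and YDR003W-A is given without the codons.
MIN9-URA6 (chrXI:393138-393148, minus strand): TAAgacaaATG
YIR021W-A-SEC11 (chrIX:398724-398735, plus strand): TAGcacaagATG
NIT1-YIL165C (chrIX:34075-34089, minus strand): TAGaggactgtgATG
RCR2-YDR003W-A (chrIV:454755-454781, plus strand): tttttcgtttaatgaatttattatcgc

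The most used start of the shared molecules is shown for pairs described below, with the base before the start and the first transcribed base in capitals. A pyrimidine followed by a purine there is the usual yeast initiator.
YGL188C-A-RPS26A (chrVII:149005-149024, minus strand): tatagtaaaTGatttaattt
RPR2-YIR016W (chrIX:381914-381933, plus strand): ccacatcgcCGacagagaaa
YOR302W-CPA1 (chrXV:882646-882665, plus strand): tcagaactaTAacacataga
CDD1-MAP1 (chrXII:626939-626958, minus strand): agagaatctCAagcagagaa
PMP1-YCR024C-B (chrIII:163210-163229, minus strand): taaaggaagACgctacacac
MAK31-PET18 (chrIII:155096-155115, minus strand): taaggggcaCCaaagcgtca
The first 4 of these carry the initiator pair, and the starts over PMP1 and MAK31 do not. The most used start carried it in 27 of the 32 pairs with at least 10 molecules.

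Members were rare and unevenly spread. They made up 0.0420% of all molecules (0.0404% to 0.0437%) and 0.125% of isoforms. The pair PMP1 and YCR024C-B alone held 830 molecules, or 32.5% of the members, and the 5 leading pairs together held 1591, or 62.4%. Of 5901 consecutive pairs of ORFs on the same strand, 109 had at least 1 molecule over both (1.85%), and 32 had at least 10 (0.542%); the other 3 of the 112 pairs are not neighbours and come from molecules over 3 ORFs. A single molecule was found over 29 pairs and from 2 to 9 over 51, and the median pair had 4.0 molecules. In 62 pairs all molecules were of 1 isoform, and in 33 of these that isoform had been counted more than once, up to 13 times. Members averaged 3.99 molecules per isoform, against 11.9 in the whole table. Whether repeated counts are separate RNA molecules was not tested. Each member molecule had 30 nt at its start and 30 nt at its end that occur at 1 place in the genome (100% for both ends together).

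**Figure D1:**
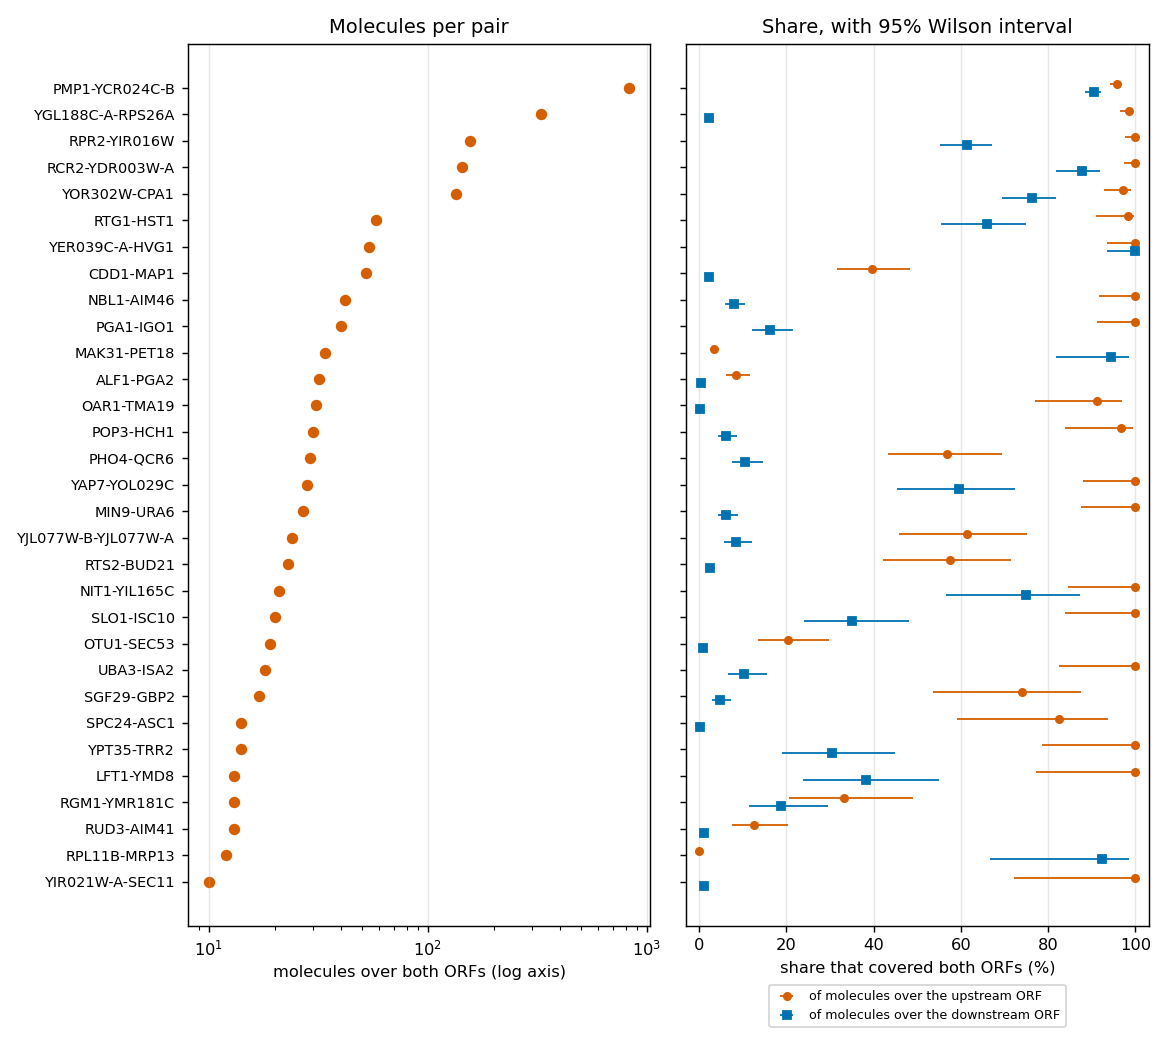
The left panel plots molecules over both ORFs on a log axis for pairs with at least 10 of them, and the right panel plots the share of molecules over the upstream ORF (circles) and over the downstream ORF (squares) that covered both, with 95% Wilson intervals. In 19 pairs the upstream share was at least 90%, and the downstream share was at least 90% in 4.

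For most of the well-covered pairs the upstream ORF had hardly any transcript of its own. In 19 of the 32 pairs with at least 10 molecules, at least 90% of the molecules over the upstream ORF ran on over the whole downstream ORF. In 17 of these 19 the downstream ORF also had molecules without the upstream ORF, making up more than 10% of its own. Over all 112 pairs the upstream share was at least 90% in 34, but many of those rest on a few molecules. Among the 90 pairs with at least 10 molecules over the upstream ORF, the median upstream share was 3.94%, with quartiles of 0.348% and 59.4%, and 32 pairs were under 1%. The downstream share had a median of 1.29% over 104 such pairs, and 48 of them were under 1%.

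PMP1 and YCR024C-B were found mostly on the same molecules. PMP1 (YCR024C-A, 123 nt) encodes a small proteolipid that regulates the plasma membrane proton pump Pma1, and YCR024C-B (267 nt) encodes an uncharacterized protein. They lie on the minus strand of chromosome III from 162599 to 163067 with a spacing of 79 nt. Of 867 molecules over PMP1, 830 also covered YCR024C-B, a share of 95.7% (94.2% to 96.9%). The other 37 all ended inside YCR024C-B, and 0 ended in the spacer. Of 917 molecules over YCR024C-B, 90.5% covered PMP1, 56 started inside PMP1 and 31 started in the spacer. The molecules came from 84 start sites and 31 end sites in 211 isoforms, and the most counted isoform had 29. The start at 163219 was used by 82 and the end at 162409 by 297, and that end was also the most used among the molecules over YCR024C-B that did not cover PMP1. The leader ahead of PMP1 had a median of 152 nt and the 3′ UTR after YCR024C-B a median of 190 nt.

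In several pairs a short ORF stood ahead of a longer gene. YOR302W (78 nt) encodes the arginine attenuator peptide, whose translation halts ribosomes ahead of CPA1 when arginine is plentiful, and CPA1 (YOR303W, 1236 nt) encodes the small subunit of carbamoyl phosphate synthetase, which feeds arginine synthesis. They lie on the plus strand of chromosome XV from 882765 to 884134. Of 139 molecules over YOR302W, 135 covered CPA1, which was 97.1% (92.8% to 98.9%). These were 76.3% (69.5% to 81.9%) of the 177 molecules over CPA1. Of the others over CPA1, 38 started inside YOR302W and 4 in the 56 nt spacer, so that 42 held the CPA1 ORF without a whole attenuator ORF.

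YGL188C-A (141 nt, uncharacterized) stands 235 nt ahead of RPS26A (YGL189C), which encodes a protein of the small ribosomal subunit, on the minus strand of chromosome VII from 148229 to 148964. Of 332 molecules over YGL188C-A, 327 covered RPS26A, or 98.5% (96.5% to 99.4%), in 57 isoforms. RPS26A itself had 14405 molecules, so the shared ones were 2.27% (2.04% to 2.53%) of them. Another 14030 started in the spacer and 48 inside YGL188C-A. The short ORF was thus seen almost entirely on a small extended class of RPS26A transcripts, and 215 of these ended at 148160, the end most used by the other RPS26A molecules too.

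In the pairs of MIN9 with URA6 and of YIR021W-A with SEC11, most molecules over the downstream ORF started inside the upstream ORF. MIN9 (YKL023C-A, 228 nt, encodes a small mitochondrial protein) ends 5 nt ahead of URA6, the uridylate kinase gene. All 27 molecules over MIN9 covered URA6 (87.5% to 100%), against 433 over URA6 in all, and the other 406 started inside MIN9. YIR021W-A (213 nt, uncharacterized) ends 6 nt ahead of SEC11, which encodes the catalytic subunit of signal peptidase. It was covered by 10 molecules of 1 isoform, each of which covered SEC11, while 930 of the 943 molecules over SEC11 started inside YIR021W-A and 3 in the spacer. Neither upstream ORF had a molecule that ended ahead of its neighbour's stop codon. Among the 32 pairs, downstream molecules that missed the upstream ORF started more often inside it than in the spacer in 8, and 7 of these 8 had a spacing of at most 105 nt. The other was YAP7 and YOL029C, at 212 nt.

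NIT1 (YIL164C, a nitrilase) and YIL165C are noted by RefSeq as probably 1 nitrilase ORF in other strains of S. cerevisiae. In R64 they are separated by a stop codon and 9 nt, in the same reading frame and with 0 further stops in that frame. All 21 molecules over NIT1 covered YIL165C (84.5% to 100%), in 9 isoforms, and they were 75% of the 28 over YIL165C. The other 7 started inside NIT1. YER039C-A (219 nt, uncharacterized) and HVG1 (750 nt, a putative GDP-mannose transporter gene) showed the same layout on chromosome V from 228456 to 229481. Their 57 nt spacer keeps the frame and holds 0 stops in it. All 54 molecules over either ORF covered both (93.4% to 100% for each), in 15 isoforms. Of the 39 consecutive pairs in the same frame, 5 had no stop in that frame in the spacer, and YIR021W-A and SEC11 were also among them. The same frame was found in 35.8% of the covered pairs and in 33.9% of all consecutive pairs.

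Among longer upstream ORFs, RPR2 (YIR015W, 435 nt), a subunit of the nuclear ribonuclease P that trims transfer RNA precursors, had 156 molecules, and all of them covered YIR016W as well (97.6% to 100%). The 2 ORFs lie on the plus strand of chromosome IX from 381948 to 383425 with 245 nt between them. A further 95 molecules over YIR016W started in the spacer and 3 inside RPR2, so the shared molecules were 61.4% (55.3% to 67.2%) of its 254. RCR2 (YDR003W, 633 nt), which acts in sorting of plasma membrane proteins to the vacuole, had 143 molecules, all of which covered YDR003W-A (123 nt, uncharacterized) 27 nt downstream (97.4% to 100%). These were 87.7% of the 163 molecules over YDR003W-A, and 19 of the rest started inside RCR2. Here the short ORF was the downstream one.

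RTG1 (YOL067C), a transcription factor that signals from mitochondria to the nucleus, and HST1 (YOL068C), a histone deacetylase gene, shared 58 molecules. These were 98.3% of the 59 over RTG1 (91.0% to 99.7%) and 65.9% of the 88 over HST1 (55.5% to 75%). Another 29 molecules over HST1 started inside RTG1 and 1 in the spacer of 105 nt. NBL1, the borealin subunit of the chromosomal passenger complex, had 42 molecules, and all covered AIM46, a mitochondrial hemoprotein gene (91.6% to 100%). PGA1, part of a mannosyltransferase for GPI anchors, had 40, and all covered IGO1, whose product protects messenger RNAs on entry into quiescence (91.2% to 100%). Both downstream genes had mostly molecules of their own that started in the spacer, 471 for AIM46 and 182 for IGO1. YAP7, which encodes a bZIP transcription factor, had 28 molecules, all of which covered YOL029C (87.9% to 100%), but each of them ended at an A-rich stretch.

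**Figure D2:**
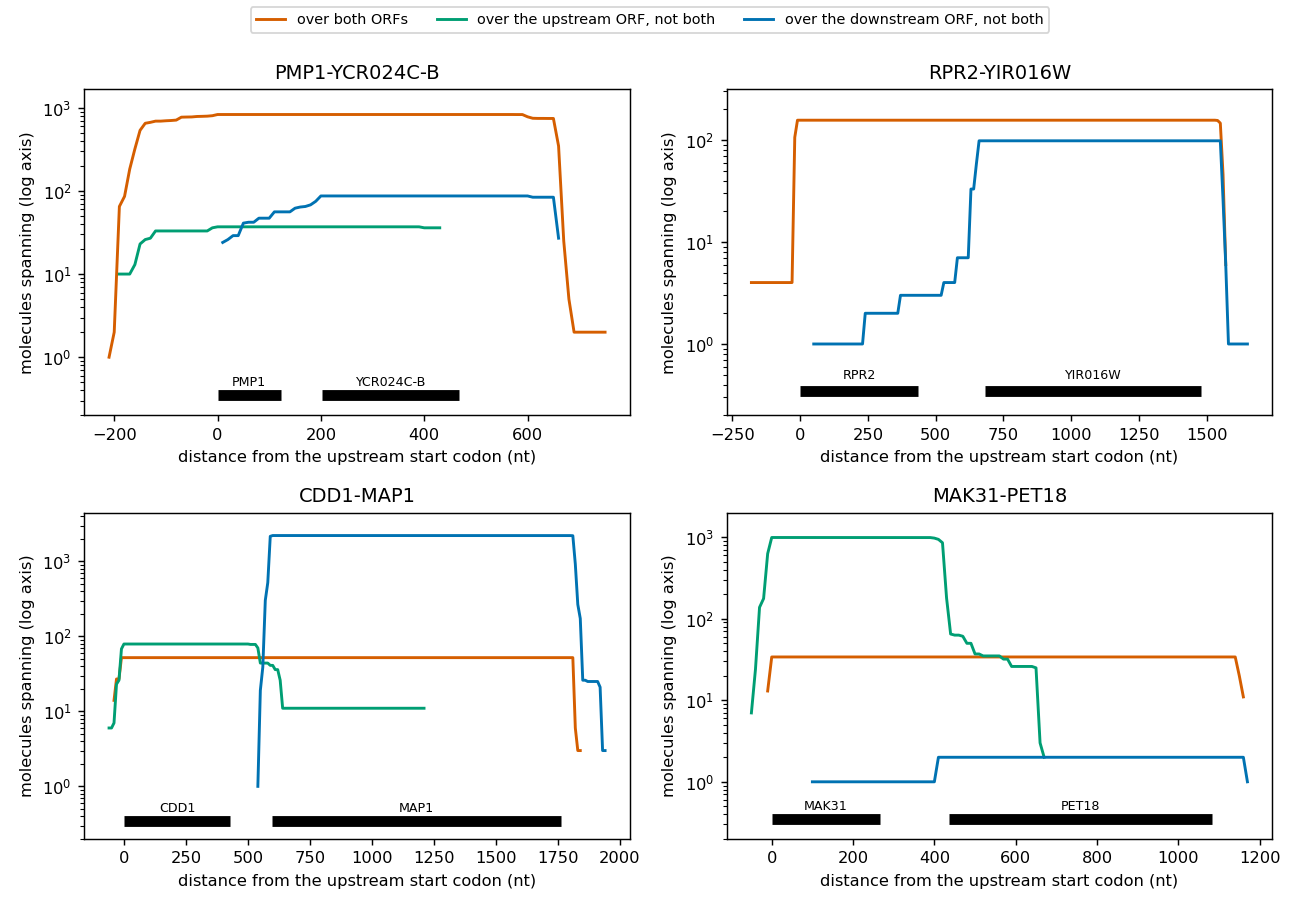
The panels plot, on a log axis, how many molecules spanned each position from the upstream start codon in 4 pairs, with the ORFs as black bars, for molecules over both ORFs, over the upstream ORF but not both, and over the downstream ORF but not both. PMP1 and RPR2 were spanned mainly or only by shared molecules, MAP1 mainly by its own, and PET18 mainly by molecules that also covered MAK31.

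CDD1 and MAP1 showed a mixture. CDD1 (YLR245C) encodes cytidine deaminase and MAP1 (YLR244C) a methionine aminopeptidase, on the minus strand of chromosome XII from 625168 to 626930. Of 131 molecules over CDD1, 52 covered MAP1, which was 39.7% (31.7% to 48.3%). A further 41 ended inside MAP1, and 38 ended in the spacer of 170 nt. The shared molecules were 2.30% of the 2259 over MAP1, and the other 2207 started in the spacer. Of the 52, 51 started at a site also used by the other CDD1 molecules, and all 52 ended at a site used by the other MAP1 molecules.

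In 2 of the 32 pairs with at least 10 molecules, the downstream share was at least 90% and the upstream share was below that. MAK31 (YCR020C-A), a subunit of the NatC protein acetyltransferase, had 1027 molecules, of which 34 covered PET18 (YCR020C), or 3.31% (2.38% to 4.59%). Those 34 were 94.4% (81.9% to 98.5%) of the 36 molecules over PET18. Of the other MAK31 molecules 926 ended in the spacer and 67 inside PET18. An end followed by an A-rich stretch, defined below, was found for 41.2% of the shared molecules. RPL11B, a ribosomal protein gene, had 18914 molecules, and 12 of them, in 2 isoforms, covered MRP13 (mitochondrial ribosomal protein gene). They were 92.3% of the 13 molecules over MRP13. RPL11B and MRP13 fell outside the rule for naming pairs and were chosen after their values were seen.

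**Figure D3:**
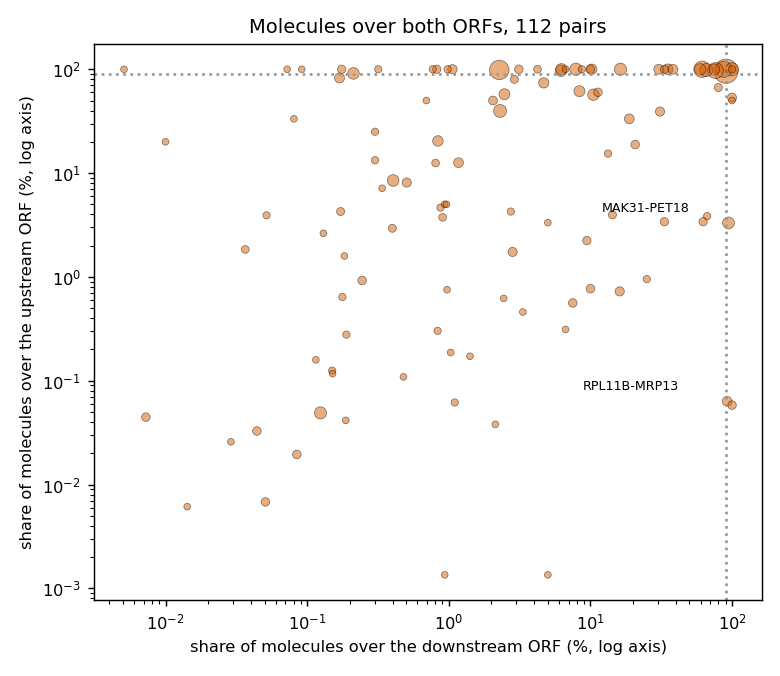
Each of the 112 pairs is a point, placed by the share of molecules over the downstream ORF (horizontal, log axis) and over the upstream ORF (vertical, log axis) that covered both ORFs, with a point area that grows with the number of shared molecules. Dotted lines mark 90%, and 34 pairs lie above the horizontal one.

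Where the upstream gene had many molecules, the shared ones took a very small part of them. At the 10 pairs with at least 10000 molecules over the upstream ORF, shared molecules summed over pairs numbered 84, and the upstream share ran from 0.00135% to 0.0634%. The count of covered pairs moved with level: of pairs within reach of the longest isoform with at least 1000 molecules over each ORF, 8 of 41 were covered (19.5%), against 3.55% where the lower count was from 1 to 9. TIF-Seq joins cDNA ends by ligation, a join between cDNAs of neighbouring genes would leave the same record, and its part in these counts was not tested. A pair separated by an ORF on the opposite strand was covered in 1 of 872 cases within reach (0.115%), RPP1A and RPS16B, whose 6 molecules crossed RPL13A. RPP1A and RPS16B were also chosen after their values were seen. With no ORF lying in the spacer it was 108 of 2398 (4.50%).

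Runs of 3 ORFs were rarer still. The molecules over them numbered 8 in 3 isoforms. YBR197C, YBR196C-B and YBR196C-A on chromosome II had 5 molecules of 1 isoform, and YBR196C-B, YBR196C-A and PGI1, the phosphoglucose isomerase gene, had 2 of 1 isoform. The third run had 1 molecule over RPL27A, a ribosomal protein gene, DIA4, which encodes a mitochondrial seryl-tRNA synthetase, and VPS29, a retromer subunit gene. With a single molecule it fell outside the rule for naming runs, and it is given to complete the count.

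The percentage of neighbours covered declined with their combined length. The longest isoform of the table is 4874 nt, and of the 3270 pairs whose combined coding span is no longer than that, 3.33% were covered. Where the combined span was at most 1000 nt, 11 of 37 pairs were covered (29.7%). It was 19.1% of the next pairs up to 1500 nt and 12.5% of those up to 2000 nt. Above that it was 4.40% up to 2500 nt and 2.81% up to 3000 nt. Longer pairs up to 4000 nt were covered in 2 of 1068 cases (0.187%), and 0 of 789 pairs above 4000 nt were. Long molecules were scarce in the whole table, where 0.503% of molecules were over 2000 nt, against 13.2% of the members, which the rule makes long. The part of this scarcity in the decline was not tested.

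Spacing was short in covered pairs. The median was 242 nt over the 109 pairs (quartiles 149 and 358 nt, range 5 to 2012 nt). It was 498 nt over the 3270 consecutive pairs within reach and 383 nt over the 2398 of these with no ORF in the spacer. Pairs with at least 10 molecules had a median of 189.5 nt. Of pairs within reach, 24.1% were covered at a spacing of at most 100 nt, 14.5% above that and up to 200 nt, and 5.32% in the next window up to 300 nt. Between 400 and 600 nt it was 2.60%, and between 600 and 1000 nt 1.65%. Among the longest spacings of pairs with at least 10 molecules were 653 nt between YJL077W-B and YJL077W-A, short uncharacterized ORFs with 24 molecules and a median leader of 899 nt and 561 nt between SPC24 and ASC1. SPC24, a kinetochore gene, had 17 molecules, of which 14 covered ASC1, the gene of a ribosome-bound scaffold protein with 8308 molecules. All 14 had an A-rich end. The spacing and the combined span move together, and they were not separated.

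**Figure D4:**
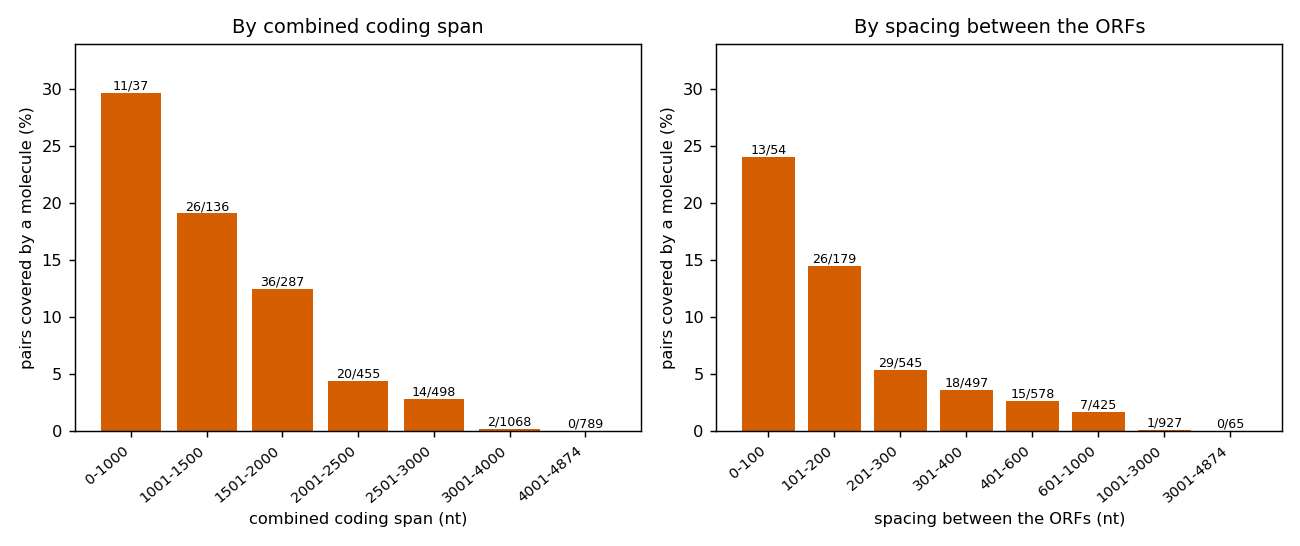
Bars give the percentage of consecutive same-strand ORF pairs with at least 1 molecule over both ORFs, by combined coding span (left, all pairs up to the longest isoform) and by spacing (right, the same pairs, of which the 65 above 3000 nt had none). Labels give covered pairs over all pairs, and the percentage is highest in the lowest window of each panel, 29.7% and 24.1%.

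The pairs looked up by name gave the following. RGM1, which encodes a zinc finger protein, and YMR181C, 451 nt apart on chromosome XIII, had 13 shared molecules of 1 isoform, of 39 over RGM1 (33.3%, 20.6% to 49.0%) and 69 over YMR181C (18.8%). HIS3, a histidine synthesis gene, and DED1, an RNA helicase gene, lie 302 nt apart and had 0 shared molecules of 2012 over HIS3, which allows a share of up to 0.149%. Their combined span in R64 is 2780 nt and only 41 molecules covered DED1. The HIS3 sequence carried by this strain was not checked.

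Over all members together, the ends of the shared molecules were mostly those of the downstream gene. Their starts were less often those of the upstream gene, in a count that includes upstream ORFs with few or no molecules of their own. Of 2551 molecules, 2087 ended at the exact position of a molecule that held the downstream ORF and no other, which was 81.8% (80.3% to 83.3%). At the exact position of a start of a molecule over the upstream ORF alone there were 799, or 31.3% (29.6% to 33.1%). For 630 molecules in 29 combinations of first and last ORF no molecule covered the upstream ORF alone, so a shared start was impossible. Where the upstream ORF had at least 10 molecules of its own, 52.7% of 1282 shared molecules started at 1 of its sites, and where the downstream ORF had at least 10, 86.4% of 2400 ended at 1 of its sites. Of those 1282, 830 were over PMP1 and YCR024C-B, and 275 of the 830 started at a site of the 37 molecules over PMP1 alone. By contrast, 690 of the 830 ended at a site of the other molecules over YCR024C-B. That pair therefore weighs heavily in the 52.7%, and the gap to 86.4% was not computed without it. In other pairs it was 51 of 52 for CDD1 and MAP1, 34 of 34 for MAK31 and PET18, and 0 of 24 for YJL077W-B and YJL077W-A. Over all members without PMP1 and YCR024C-B, shared starts were 30.4% and shared ends 81.2%, again with upstream ORFs that had few or no molecules of their own. How these percentages vary with a gene's level was not tested beyond that limit of 10 molecules. Among 28 pairs with at least 10 molecules of each kind, the most used end was the same in 13 and within 5 nt in 16. The most used start was the same in 5 and within 5 nt in 6 of 12 such pairs.

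The leader ahead of the upstream ORF had a median of 50.0 nt in the shared molecules (quartiles 24 and 150 nt), against 32.0 nt in molecules over the same upstream ORFs alone. Without PMP1 and YCR024C-B it was 33.0 nt. The 3′ UTR after the downstream ORF had a median of 131 nt, or 80.0 nt without that pair, against 120 nt in molecules over the downstream ORFs alone. The initiator pair was found at 64.6% (59.5% to 69.3%) of the 364 distinct start sites of shared molecules, against 46.7% (44.2% to 49.3%) of 1471 sites of molecules over the upstream ORFs alone. The 364 sites came from 2551 molecules and the 1471 from 377294, and shares of distinct sites were not compared at equal depth. Weighted by molecules the order was the other way, 68.3% against 89.1%. Both pools are uneven. PMP1 and YCR024C-B, whose most used start lacks the initiator pair, gave 830 of the 2551 shared molecules. Among the upstream ORFs, VMA3 alone had 88272 molecules over it. The weighted shares therefore compare unlike mixtures of genes, and they were not compared within pairs. An end followed by at least 6 A in the next 10 nt of genome, where a primer can bind without a poly(A) tail, was found for 15.6% (14.3% to 17.1%) of shared molecules, against 10.5% of molecules over the downstream ORFs alone and 35.3% of those over the upstream ORFs alone. For shared molecules without PMP1 and YCR024C-B it was 22.8%, and over that pair it was 0.723%. These A-rich shares pool the same unlike mixtures of genes and were not compared within pairs either. RPR2 and YIR016W had such ends in 73.7% of molecules and YIR021W-A and SEC11 in 100%. The most used ends of 2 pairs are shown with the next 10 nt in capitals.
RPR2-YIR016W (chrIX:383492-383511, plus strand): ggaaaaatcgAAAAATCGAA
CDD1-MAP1 (chrXII:625102-625121, minus strand): gaacttgtacTTTCCCGAGT

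The motif TATATA stood after the stop codon of a smaller share of the upstream ORFs in covered pairs than in other pairs. TATATA is the best known form of the yeast polyadenylation efficiency element, and it reads the same on both strands; no other termination motif was searched. It was present in the 150 nt after the stop codon of 17 of 109 upstream ORFs of covered pairs (15.6%), against 1352 of 3161 upstream ORFs of consecutive pairs within reach that were not covered (42.8%). The downstream ORFs of covered pairs had it in 45.9%, and all 6002 ORFs in 42.3%. In short spacers the window runs into the downstream ORF. Where the spacing was at least 150 nt and held no ORF, the motif was found in 14 of 80 covered pairs (17.5%) and in 895 of 2213 that were not covered (40.4%). With a combined span of at most 2000 nt as well, it was 9 of 52 (17.3%) against 128 of 325 (39.4%). Among pairs with at least 10 molecules 3 of 32 had it (9.38%): MAK31 and PET18, YJL077W-B and YJL077W-A, and RPL11B and MRP13. A match describes letters in a window and is not a mapped site, and these shares carry no test.

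**Figure D5:**
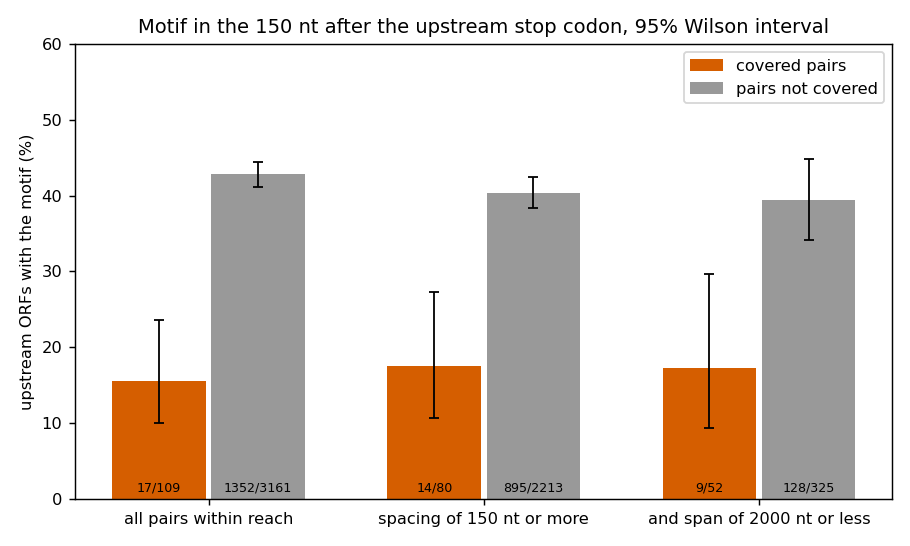
Bars give the percentage of upstream ORFs with TATATA in the 150 nt after the stop codon, for covered pairs and for consecutive pairs within reach that were not covered, with 95% Wilson intervals over ORFs and the counts at the foot. In all 3 comparisons the covered pairs sit lower, at 15.6%, 17.5% and 17.3%, against 42.8%, 40.4% and 39.4%.

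Short ORFs and ribosomal protein genes took a larger part of the covered pairs than of the background. Upstream ORFs of at most 300 nt numbered 17 of 109 (15.6%), against 229 of 3270 within reach (7.0%), and the pairs with such an upstream ORF held 1531 molecules. Downstream ORFs that short numbered 9 of 109 (8.26%), against 193 (5.90%). Cytosolic ribosomal protein genes were 8 of the upstream ORFs (7.34%), against 91 of the background (2.78%), and 9 of the downstream ORFs (8.26%), against 95 (2.91%). The 14 pairs with at least 1 such gene held 411 molecules, of which 327 were those of YGL188C-A and RPS26A. Mitochondrial ribosomal protein genes numbered 3 upstream (2.75%, against 1.22%) and 1 downstream (0.917%, against 1.53%). ORFs known by a systematic name only were 18.3% of the upstream ORFs, against 13.5%, and 15.6% of the downstream ORFs, against 12.4%. ORFs with an intron were 7.34% upstream, against 4.59%, and 9.17% downstream, against 5.17%. Level moved with these counts: the median over covered pairs was 51.5 molecules over the upstream ORF and 234 over the downstream ORF, against 22.0 and 21.0 over all consecutive pairs. A pair needs a molecule to be counted, so part of that gap follows from the rule, and the part of level and of span in the group counts was not tested.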

How the data were processed

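Per the labels' protocols, cDNA copies of whole messenger RNAs were joined end to end within each molecule, broken up, and the joined ends sequenced in pairs. The authors deposited 1 whole-number count per start and end position, pooled over the 2 cultures and used here unscaled. The submitters' processing notes name CASAVA, Novoalign 2.07.10 and build R64. Filters and treatment of duplicates are not given in the sources used here. On the 16 chromosomes, 0 positions lay beyond a chromosome's end.

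Coding spans came from RefSeq's R64 annotation of the nuclear chromosomes. An isoform belonged to a pair when its span held both coding spans. Shares used molecules over the whole ORF as denominator. Python 3.11.15, pandas 2.3.3 and scipy 1.17.1 were used, and the position code was tested on simulated ORFs. Columns of other samples numbered 0.

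Pairs were named by rule: the 12 with most molecules, the 6 highest upstream shares (ties at 100% broken by molecules) and the 3 shortest and 3 longest spacings among pairs with at least 10 molecules, runs of 3 ORFs with at least 2 molecules, and HIS3-DED1 and RGM1-YMR181C. Members and lists were chosen with earlier results of these data known. The motif search was added after the data were seen. Of the pairs that rule names, 1 is not reported here and is left out of the plot of molecules per pair.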

Additional observations from a re-analysis of the deposited data

Results flagged for a closer look

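Isoforms whose only covered ORFs overlap each other were left out of the pairs, and 854 molecules in 185 isoforms over 7 such sets of ORFs were found among them. They drew attention because the comparisons did not use them and the series has no control sample. YNL155C-A and NSG2 had 381 of them, YPT6 and VPS63 had 313, PIN2 and YOR105W had 148, and LDO45 and LDO16 had 7.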

How the results depend on the processing

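Pairs with few molecules have wide counting intervals. No paired analysis was possible because both replicates share 1 pooled column, so no replicate could be left out either. Of 34 alternatives, 8 stayed within the counting interval of the reported value and 26 moved beyond it; the cause was not tested, except where the alternative changes what is counted.
The share of all molecules over 2 or more ORFs (0.0420%) became 0.125% with each isoform counted once, 0.0391% with isoforms of at least 2 molecules, 0.0387% with at least 10 nt beyond the coding spans, 0.0561% with overlapping ORFs kept and 0.0123% without ORFs known by a systematic name only. The percentage of consecutive pairs covered (1.85%) became 1.29% with isoforms of at least 2 molecules, 1.37% for pairs with at least 2 molecules, 1.47% without systematic names, 3.33% within the longest isoform and 0.847% for pairs with at least 2 isoforms, an alternative chosen after seeing the data.
The share of molecules over the upstream ORFs that covered both, pooled over all pairs, was 0.674%. It became 7.10% with each isoform counted once, 0.849% with isoforms of at least 2 molecules, 0.642% over all overlapping sense molecules, 0.900% over the downstream ORFs' molecules, 0.456% without PMP1-YCR024C-B and 0.204% without systematic names. The median spacing (242 nt) was 105 nt weighted by molecules.
Shared starts (31.3%) became 49.4% within 5 nt, 28.8% with each isoform counted once and 24.4% with isoforms of at least 2 molecules. Shared ends (81.8%) became 90.7%, 76.8% and 77.0% under the same alternatives. A-rich ends (15.6%) became 24.1% with at least 5 A, 12.1% with at least 7 A and 22.8% without PMP1-YCR024C-B.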
